A study of Mus musculus with 8 samples.

Results

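A set of 40 genes known to be switched on by interferons was followed in epithelial cells of the mouse intestine at lactation day 5, with and without Rank (Tnfrsf11a), the receptor for the cytokine RANKL. The 40 genes were named by their known induction by interferon, with no threshold on measured values, although earlier results of these data were known when the list was drawn up. They cover signalling and transcription factors, genes of RNA and DNA sensing, the ISG15 system, antiviral effectors, interferon-inducible GTPases, antigen presentation and a few other induced proteins. All 40 were present in the table of 54532 genes, and 28 of them held enough counts to be among the 9855 genes tested. The 8 libraries came from 4 WT and 4 Rank-knockout lactating mice, and each library was made from epithelial cells released from intestinal tissue.

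In the Rank-knockout mice a floxed Rank allele was deleted by Cre under the Villin promoter, which is active across the intestinal epithelium and not in immune cells. The colony was kept on a C57BL/6J background, and WT and Rank-knockout females were littermates mated to C57BL/6J males. The labels do not say which animal gave which library beyond the replicate number, so p-values measure the spread between these libraries. The libraries held 1530781 to 4335653 counts of 3′ end tags, and levels are given as CPM, which are counts brought to a common library size of 1000000 after scaling by the trimmed mean of M-values (TMM). Epithelial genes were abundant in every library: Cdh1, the epithelial cadherin, lay between 3910 and 5381 CPM and Epcam, an epithelial adhesion molecule, between 1779 and 2245 CPM in WT and between 1384 and 1644 CPM in Rank-knockout. Tnfrsf11a itself stood at 77.4, 49.7, 41.7 and 73.9 CPM in WT replicates 1 to 4 and at 27.2, 42.0, 35.5 and 47.2 CPM in Rank-knockout replicates 1 to 4. These tags lie at the end of the transcript, and the sources used here do not place the deleted exons there, so the remaining counts do not check the deletion.

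Interferons are secreted proteins that tell cells of an infection. Type I interferons bind a receptor of the chains IFNAR1 and IFNAR2, type III interferons bind IFNLR1 and IL10RB and act mainly on epithelia, and interferon gamma binds IFNGR1 and IFNGR2. All of them activate JAK kinases and STAT proteins. STAT complexes with IRF9 bind the interferon-stimulated response element (ISRE), while STAT pairs formed after interferon gamma bind the gamma-activated site (GAS). Gut epithelium keeps a low level of this programme without an infection.

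The letters of these elements were looked for in RefSeq promoter windows of build GRCm38.p6, which run from 250 bases before to 50 bases after an annotated start. An ISRE-type match was GAAA, any 2 bases and GAAA again, on either strand, and a GAS-type match was TTCNNNGAA, which reads the same on both strands. The letters of a GAS-type match may overlap those of an ISRE-type match. Of the 40 genes, 29 had a window. An ISRE-type match was found for 16 of these 29, against 3.44% of all 32851 windows and 3.99% of all 27025 genes with a window. A GAS-type match was found for 10 of 29, against 8.3% of windows and 9.55% of genes. The 11 genes without an entry were Ifi27l2b, Oas2, Mx1, Mx2, Usp18, Iigp1, Tap2, Zbp1, Dhx58, Parp14 and Nlrc5. The stretches below are the 140 bases just before the start of 6 members, 5′ to 3′ on the strand of the gene, with ISRE-type and GAS-type matches in capitals. They are shown because 5 of the 6 varied widely between mice, as described below, and because Bst2 was the member that was higher in Rank-knockout. Isg15 holds 3 overlapping ISRE-type matches, Ifit1 holds 2, Rsad2 holds 1, and Igtp, Irgm2 and Bst2 carry both types next to each other.
Isg15 (chr4:156200819-156200958, minus strand): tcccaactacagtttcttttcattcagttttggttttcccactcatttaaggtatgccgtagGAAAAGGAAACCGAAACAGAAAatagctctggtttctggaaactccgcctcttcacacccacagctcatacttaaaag
Ifit1 (chr19:34640749-34640888, plus strand): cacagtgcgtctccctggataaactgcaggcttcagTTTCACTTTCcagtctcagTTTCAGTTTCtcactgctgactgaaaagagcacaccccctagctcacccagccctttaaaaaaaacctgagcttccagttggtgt
Rsad2 (chr12:26456453-26456592, minus strand): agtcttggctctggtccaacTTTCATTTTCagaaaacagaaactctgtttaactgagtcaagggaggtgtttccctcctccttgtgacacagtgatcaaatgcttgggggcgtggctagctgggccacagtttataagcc
Igtp (chr11:58199416-58199555, plus strand): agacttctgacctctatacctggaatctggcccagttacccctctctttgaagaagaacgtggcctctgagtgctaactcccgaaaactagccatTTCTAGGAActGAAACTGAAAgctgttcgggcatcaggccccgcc
Irgm2 (chr11:58214837-58214976, plus strand): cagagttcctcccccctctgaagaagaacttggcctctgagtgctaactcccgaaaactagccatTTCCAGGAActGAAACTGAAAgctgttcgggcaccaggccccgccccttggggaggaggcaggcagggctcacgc
Bst2 (chr8:71537473-71537612, minus strand): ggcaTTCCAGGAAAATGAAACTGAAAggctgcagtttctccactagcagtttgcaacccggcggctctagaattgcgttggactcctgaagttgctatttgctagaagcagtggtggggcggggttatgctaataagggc
Igtp and Irgm2 are of 1 gene family, and where their stretches were aligned at the first capital without gaps, 100 of 110 bases were identical. Their annotated genes overlap on the plus strand, at chr11:58199556-58207591 for Igtp and chr11:58199618-58222782 for Irgm2. How reads in the shared part were assigned was not tested. A match of letters is a description of the window and was not measured as a bound site.

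Of 28 interferon-stimulated genes tested, 8 were lower and 1 was higher in Rank-knockout. The lower ones were the RNA sensors Ifih1 and Ddx58, the ubiquitin ligase Trim25, the transcription factor Irf7, and Oasl1, Ifi35, Ifi27l2b and Parp14, with falls of 0.46 to 0.81 on the log2 scale. The higher one was Bst2. The share that was lower, 28.6% of the tested members, stands beside 14.6% of all tested genes, and the share that was higher, 3.57%, stands beside 15.8% of all tested genes. The median log2 fold change was -0.30 over the 28 members and 0.02 over all tested genes, and 20 members had a negative and 8 a positive value. The libraries of both genotypes did not overlap for 5 of the 28 members, and for 28.8% of all tested genes. The test was edgeR's quasi-likelihood test with Benjamini-Hochberg adjustment over all 9855 genes and a threshold of 0.05. The number lower fell from 8 to 5 without WT replicate 3 (17.2% of members, beside 12.5% of all genes tested there), to 4 without Rank-knockout replicate 1 (14.3%, beside 11.2%), to 4 without Rank-knockout replicate 3 (12.9%, beside 10.9%) and to 3 on unscaled library totals (10.7%, beside 8.7%). Under each of these 4 settings the share of members was near that of all genes.

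**Figure D1:**
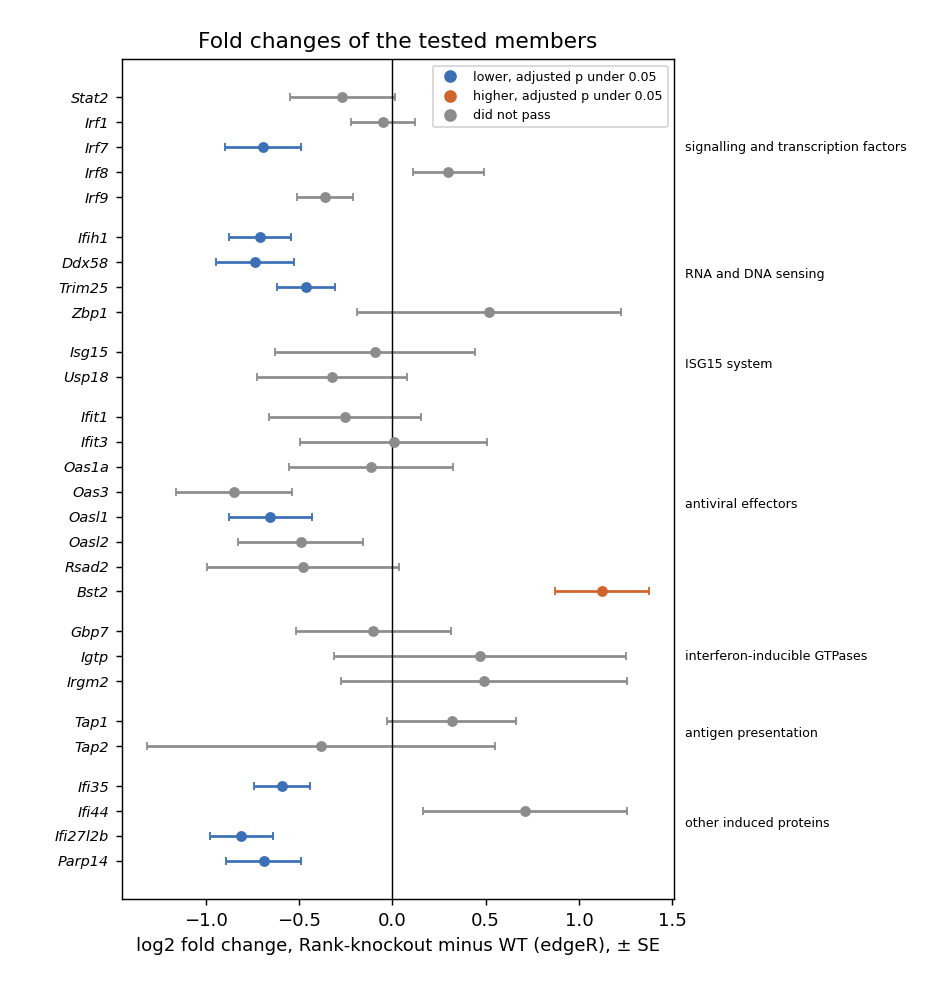
Log2 fold change of the 28 tested members, Rank-knockout minus WT, from edgeR, with bars of 1 standard error, grouped by role (blue lower, orange higher, grey did not pass). The 8 blue points lie between -0.81 and -0.46, Bst2 lies at 1.12, and the bars of Zbp1, Igtp, Irgm2 and Tap2 are the widest.

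Among the genes of RNA and DNA sensing, 3 of 4 tested were lower (75%, beside 14.6% of all tested genes). Ifih1 encodes MDA5, which recognises long double-stranded RNA, and lies at chr2:62595798-62646255 of build GRCm38. Its level was 41.8, 49.2, 54.0 and 50.6 CPM in WT replicates 1 to 4 and 31.4, 31.9, 24.7 and 30.8 CPM in Rank-knockout replicates 1 to 4. Every WT library was above every Rank-knockout library. Ifih1 had a log2 fold change of -0.71 (SE 0.17, adjusted p = 0.00484 by edgeR), and the adjusted p was 0.0955 after all libraries were thinned to the shallowest one.

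Ddx58 encodes RIG-I, the sensor of RNA with a 5′ triphosphate. It stood at 50.0, 39.3, 54.0 and 62.6 CPM in the WT libraries and at 24.4, 34.1, 22.9 and 40.1 CPM in the Rank-knockout libraries, so that Rank-knockout replicate 4 reached just above WT replicate 2. The log2 fold change was -0.74 (SE 0.21, adjusted p = 0.0148 by edgeR). Trim25 encodes a ubiquitin ligase that acts with RIG-I. It stood at 118, 122, 172 and 142 CPM in WT and at 96.4, 93.4, 92.6 and 119 CPM in Rank-knockout, where only replicate 4 came up to the lowest WT library. Its log2 fold change of -0.46 (SE 0.15, adjusted p = 0.0333 by edgeR) did not pass in 9 of the 17 alternatives. Ddx58 did not pass in 3 of the 17, on library totals and without Rank-knockout replicate 1 or 3.

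Zbp1, a sensor of nucleic acids in the Z form, was measured at 4.79, 6.59, 34.8 and 9.32 CPM in WT and at 26.8, 25.1, 4.50 and 16.3 CPM in Rank-knockout. WT replicate 3 was several-fold above the other WT libraries and Rank-knockout replicate 3 was below the others of its genotype. Its log2 fold change was 0.52 with a 95% interval of -1.13 to 2.16, it ran from 0.19 to 1.41 over the 17 alternatives, and it passed in none of them. Dhx58 encodes LGP2, a relative of RIG-I, and had 39 counts in all WT and 29 in all Rank-knockout libraries, too few to be tested. Summed over the 5 sensing genes, levels ran from 219 to 323 CPM in WT and from 145 to 208 CPM in Rank-knockout.

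**Figure D2:**
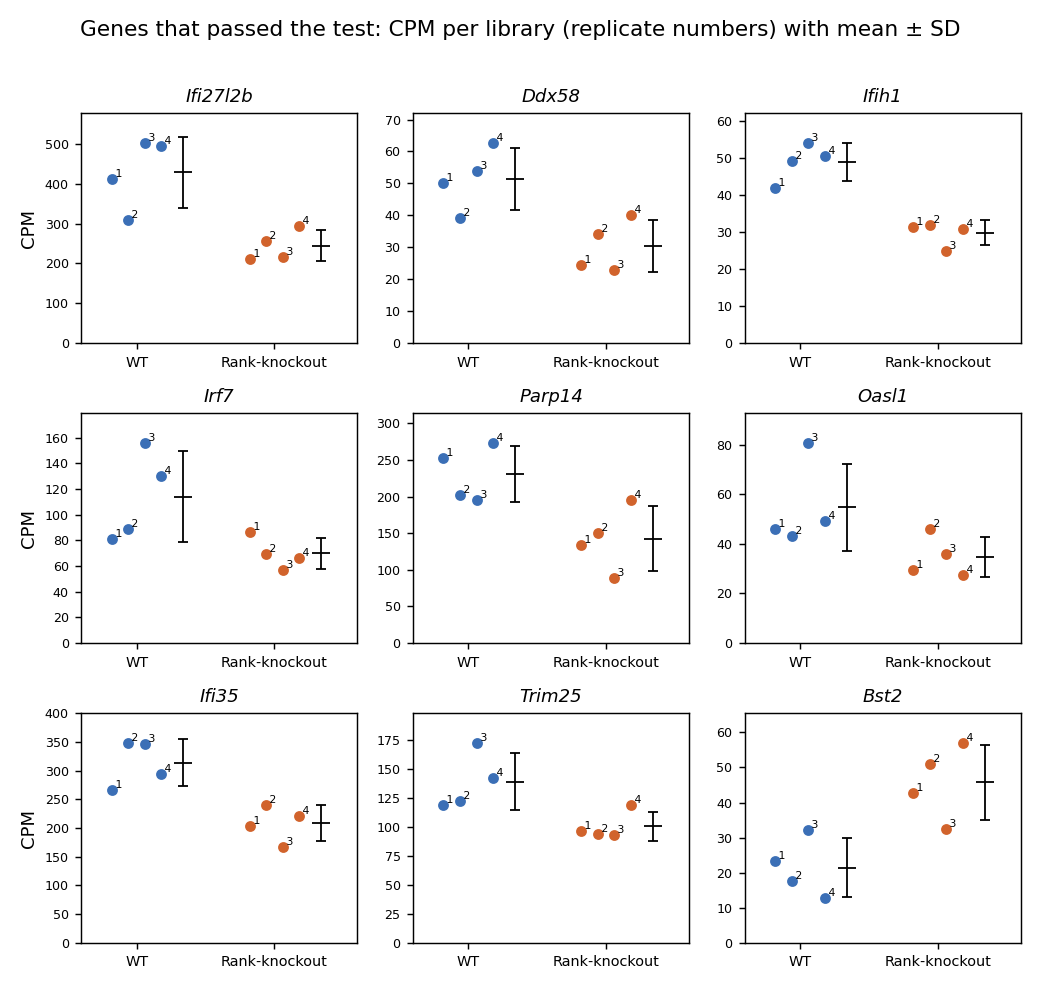
CPM of the 9 members that passed, 1 panel each, with a point for every library numbered by replicate and a black mark for the mean ± SD of the 4 libraries of a genotype. Ifih1, Ifi35, Ifi27l2b and Bst2 have no overlap between WT and Rank-knockout, and WT replicate 3 is the highest point of Oasl1 at 80.6 CPM.

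Among the genes of the signalling and transcription factor group, Irf7 was lower and the other 4 did not pass. Irf7 amplifies the interferon response and is itself induced by it. It was at 80.8, 88.4, 156 and 130 CPM in WT and at 86.6, 69.0, 57.1 and 66.2 CPM in Rank-knockout. Rank-knockout replicate 1 lay between the lower WT libraries, and WT replicates 3 and 4 lay above all others. Irf7 had a log2 fold change of -0.69 (SE 0.20, adjusted p = 0.0183 by edgeR). It did not pass without WT replicate 3, without Rank-knockout replicate 3 or on library totals, with a highest adjusted p of 0.0771.

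Irf1, which drives interferon gamma targets, was at 435, 419, 554 and 459 CPM in WT and at 443, 490, 312 and 559 CPM in Rank-knockout. The genotypes overlapped fully, and the log2 fold change was -0.05 with a 95% interval of -0.41 to 0.32. Irf8, an interferon gamma induced factor, averaged 184 ± 55.0 CPM (SD, n = 4) in WT and 225 ± 38.6 CPM in Rank-knockout. Irf9, the DNA-binding partner of STAT proteins, was at 95.2, 101, 91.5 and 89.2 CPM in WT and at 59.9, 85.9, 70.6 and 78.8 CPM in Rank-knockout. Its libraries did not overlap, but the log2 fold change of -0.36 (SE 0.15) had an adjusted p of 0.0776 by edgeR. Stat2 averaged 23.3 ± 7.56 CPM in WT against 18.5 ± 6.29 CPM in Rank-knockout.

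Antiviral effectors went in both directions. Bst2 encodes tetherin, a membrane protein that holds budding viruses on the cell, and lies at chr8:71534255-71537456. It was at 23.3, 17.7, 32.1 and 12.7 CPM in WT and at 42.7, 51.0, 32.4 and 56.9 CPM in Rank-knockout. The lowest Rank-knockout library, replicate 3, was just above the highest WT library, which was also replicate 3. Bst2 rose 2.18-fold, with a log2 fold change of 1.12 (SE 0.25, adjusted p = 0.00382 by edgeR), and passed in all 17 alternatives. Its promoter stretch, printed above, carries a GAS-type match running into ISRE-type matches, as do those of Igtp and Irgm2 with a gap of a few bases, although neither of these passed.

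Oasl1 encodes a relative of the oligoadenylate synthetases and has been tied to control of Irf7 translation. It was at 45.9, 43.1, 80.6 and 49.3 CPM in WT and at 29.5, 45.8, 36.0 and 27.4 CPM in Rank-knockout. WT replicate 3 stood apart from the other WT libraries, and Rank-knockout replicate 2 overlapped WT. The log2 fold change of -0.65 (SE 0.22, adjusted p = 0.0362 by edgeR) did not pass in 7 of the 17 alternatives, among them the one without WT replicate 3. Oas3, which makes the 2′-5′ oligoadenylates that activate RNase L, was at 21.2, 21.5, 47.1 and 29.3 CPM in WT and at 18.5, 15.8, 7.19 and 21.6 CPM in Rank-knockout. Its log2 fold change was -0.85 (SE 0.31, adjusted p = 0.0513 by edgeR), and it passed in 7 of the 17 alternatives, with adjusted p between 0.00471 and 0.166.

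Rsad2, which encodes the antiviral enzyme viperin, was the most abundant effector that did not pass. It was at 35.6, 26.1, 96.3 and 47.3 CPM in WT and at 43.7, 33.8, 11.7 and 51.1 CPM in Rank-knockout. The ranges of the genotypes overlapped, with the extremes in WT replicate 3 and Rank-knockout replicate 3. Ifit1, Ifit3, Oas1a and Oasl2, whose products bind foreign RNA or belong to the oligoadenylate synthetase family, also did not pass, with log2 fold changes from -0.49 for Oasl2 to 0.01 for Ifit3. Another 5 effectors were too low to be tested, with 5 WT counts and 14 Rank-knockout counts for Ifit2, 1 and 6 for Isg20, 23 and 36 for Oas2, 13 and 8 for Mx1, and 16 and 34 for Mx2. For Mx1, 8 of the 13 WT counts were in replicate 1. Mx2 is annotated as a polymorphic pseudogene.

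No member passed in the ISG15 system, among the GTPases or in antigen presentation. Isg15 encodes a ubiquitin-like protein that is attached to other proteins after interferon. It was at 62.3, 38.8, 184 and 96.5 CPM in WT and at 107, 84.1, 38.7 and 118 CPM in Rank-knockout. The lowest levels of both genotypes were nearly equal, and the highest was 184 CPM in WT against 118 CPM in Rank-knockout. The log2 fold change was -0.09 with a 95% interval of -1.35 to 1.17. Usp18, which removes ISG15 and dampens the type I receptor, was at 7.54, 13.4, 28.0 and 10.7 CPM in WT and at 11.9, 15.4, 4.05 and 14.8 CPM in Rank-knockout.

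The GTPases restrict intracellular microbes and respond mainly to interferon gamma. Igtp was at 13.7, 15.7, 69.7 and 18.0 CPM in WT and at 25.1, 49.5, 8.54 and 71.2 CPM in Rank-knockout, an 8.33-fold range within the knockout genotype. Irgm2 was at 8.22, 4.05, 33.5 and 18.6 CPM in WT and at 15.9, 19.5, 5.40 and 40.3 CPM in Rank-knockout, in much the same order as Igtp. The annotated genes of Igtp and Irgm2 overlap, as described above. Their log2 fold changes, 0.47 and 0.49, had 95% intervals of -1.40 to 2.34 and -1.31 to 2.29, so changes of several fold in either direction were within the error. Gbp7, a guanylate-binding protein, averaged 18.1 ± 7.78 CPM in WT against 16.0 ± 8.72 CPM in Rank-knockout. Another 4 GTPases were not tested: Irgm1 had 8 WT counts and 46 Rank-knockout counts, Iigp1 had 1 and 19, Gbp2 had 3 and 6, and Gbp3 had 10 and 16. Without a filter on low counts Irgm1 and Iigp1 passed as higher, with adjusted p of 0.0474 and 0.039 by edgeR, and 13 of the 19 Iigp1 counts in Rank-knockout came from replicate 4.

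Tap1 and Tap2 form the transporter that loads peptides for MHC class I. Tap1 was at 78.8, 83.9, 167 and 116 CPM in WT and at 90.8, 176, 81.4 and 203 CPM in Rank-knockout, with a log2 fold change of 0.32 (95% interval -0.47 to 1.10). Tap2 was at 78.1, 4.31, 146 and 132 CPM in WT and at 53.1, 54.0, 31.0 and 126 CPM in Rank-knockout. In WT replicate 2, the deepest library, Tap2 had 17 counts, against 114 to 213 in WT replicates 1, 3 and 4, and the 95% interval of its log2 fold change ran from -2.64 to 1.87 and its value over the 17 alternatives from -0.91 to 0.63. Nlrc5, the activator of MHC class I genes, had 21 counts in WT, 13 of them in replicate 3, and 62 in Rank-knockout, 34 of them in replicate 4, and was not tested.

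In the last group, 3 of 4 tested genes were lower (75%, beside 14.6% of all tested genes). Ifi27l2b, of the ISG12 family of small mitochondrial and nuclear envelope proteins, lies at chr12:103450898-103457223. It was at 412, 310, 503 and 495 CPM in WT and at 212, 257, 215 and 295 CPM in Rank-knockout, with all WT libraries above all Rank-knockout libraries. The log2 fold change was -0.81 (SE 0.17, adjusted p = 0.00266 by edgeR). Ifi35, a leucine zipper protein that partners NMI, was at 266, 348, 347 and 295 CPM in WT and at 204, 241, 167 and 221 CPM in Rank-knockout, again with no overlap. Its log2 fold change was -0.59 (SE 0.15, adjusted p = 0.00754 by edgeR), and both genes passed in all 17 alternatives.

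Parp14, an ADP-ribosyltransferase linked to STAT signalling, was at 252, 202, 195 and 273 CPM in WT and at 134, 150, 88.6 and 196 CPM in Rank-knockout. Rank-knockout replicate 4 just reached the lowest WT library. The log2 fold change was -0.69 (SE 0.20, adjusted p = 0.0182 by edgeR), and it did not pass on library totals, without WT replicate 4 or without Rank-knockout replicate 1. Ifi44, a cytosolic protein of little known function, averaged 3.92 ± 3.36 CPM in WT against 5.76 ± 3.62 CPM in Rank-knockout and did not pass. Xaf1, a promoter of apoptosis, had 33 WT counts and 51 Rank-knockout counts and was not tested.

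**Figure D3:**
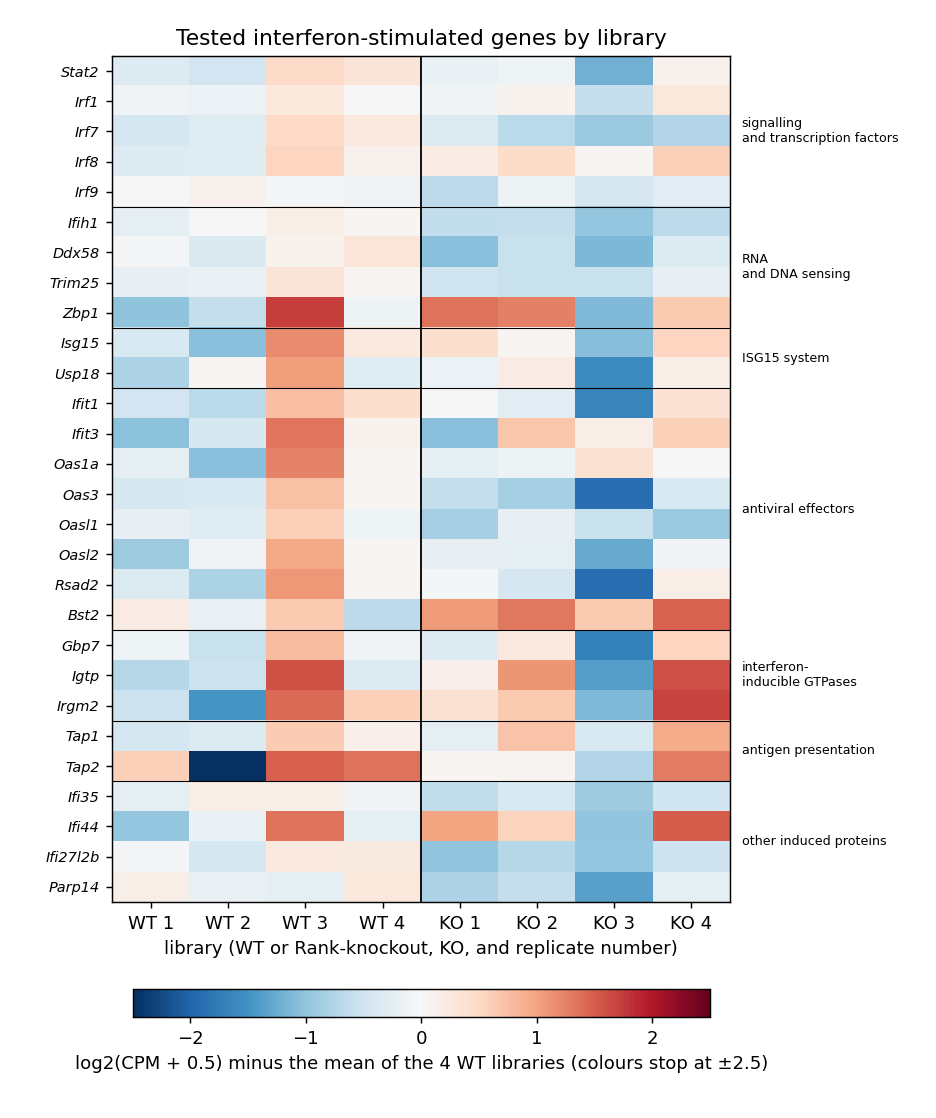
Colour shows log2(CPM + 0.5) of each tested member (rows, grouped by role) in each library (columns) minus the mean of the 4 WT libraries. The column of WT replicate 3 is red for most rows and that of Rank-knockout replicate 3 is blue for most rows, and the dark cell of Tap2 in WT replicate 2 holds 4.31 CPM.

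Mice of 1 genotype differed several-fold in many of these genes. The ratio of the highest to the lowest WT library ran from 1.14 for Irf9 to 33.8 for Tap2, and among Rank-knockout libraries from 1.28 for Trim25 to 8.33 for Igtp. The SD of log2(CPM + 0.5) within a genotype had a median of 0.60 over the 28 tested members and 0.29 over all tested genes. For 22 of the 28 members it was above the median of all tested genes, and for 15 it was above the 90th percentile of all tested genes. WT replicate 3 was the highest WT library for 24 of the 28 members (85.7%), and for 24.6% of all tested genes. Rank-knockout replicate 3 was the lowest of its genotype for 23 members (82.1%) and for 23.7% of all genes, and Rank-knockout replicate 4 was the highest for 19 members (67.9%) and for 27.8% of all genes. The members share these libraries, so these shares describe 8 mice and carry no test.

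**Figure D4:**
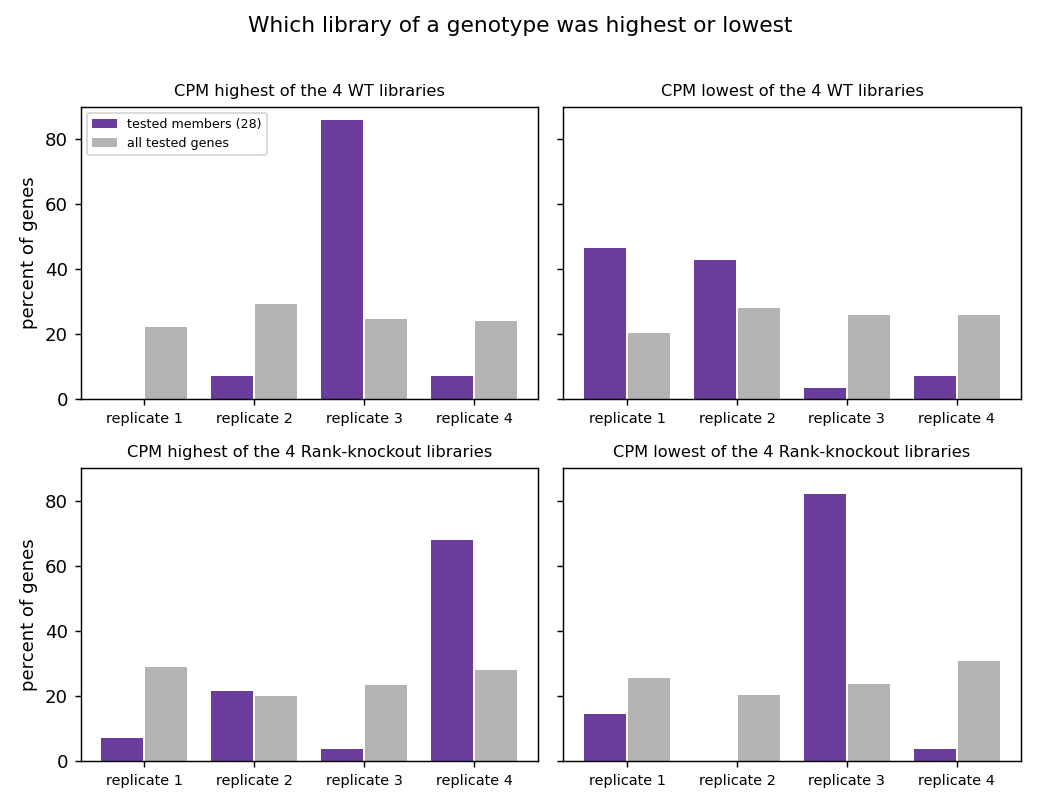
Percent of the 28 tested members (purple) and of all tested genes (grey) for which each replicate was the highest or the lowest of the 4 libraries of its genotype. Grey bars lie between 20 and 31%, while the purple bars reach 85.7% for WT replicate 3 as highest and 82.1% for Rank-knockout replicate 3 as lowest.

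By role, in groups of 2 to 8 tested genes and with no test between them, the median SD was 0.27 for the sensing genes, 0.34 for the signalling and transcription factors, 0.68 for the effectors, 0.83 for Isg15 and Usp18, 1.20 for the GTPases, 1.16 for Tap1 and Tap2, and 0.33 for the other induced proteins. Among the 8 lower members it ran from 0.16 for Ifih1 to 0.38 for Parp14, where a small spread also makes it easier to pass the test. The 13 tested members with an ISRE-type match in their promoter window had a median SD of 0.79, and the 10 tested members with a window and no such match had 0.35. Over all tested genes with a window the same medians were 0.31 and 0.29. Members with and without a match overlapped, at 0.16 to 1.21 and 0.17 to 1.03: Ifih1 (0.16) and Ddx58 (0.33) have a match, and Ifi44 (1.03), Oasl2 (0.65) and Tap1 (0.58) do not. For the GAS-type match the medians of members were 0.58 with and 0.58 without. The SD of log2 levels also grows as counts fall, and neither the roles nor the groups by match were matched for level.

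The libraries did not take the same order for every gene. In the Rank-knockout libraries Isg15 was about as high in replicate 1 as in replicate 4, whereas Igtp was at 25.1 CPM in replicate 1 and 71.2 CPM in replicate 4. Oas1a and Ifit3 were lowest in replicate 1 rather than in replicate 3. Of the other interferon targets outside the 40 genes, many had their extremes in the same libraries. WT replicate 3 was the highest WT library for 28 of 39 tested type I and III targets and for 15 of 20 tested interferon gamma targets. Rank-knockout replicate 3 was the lowest of its genotype for 26 of the 39 and 12 of the 20, and Rank-knockout replicate 4 was the highest for 19 of the 39 and 9 of the 20.

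Interferon ligands were not detectable at this depth. Of 21 ligand genes, 20 had 0 counts in all libraries, which allows a level of up to 0.139 CPM over the pooled 21652691 counts, and Ifng had 2 counts, both in Rank-knockout replicate 2. These limits cover counting error only. Of 6 receptor genes, 4 were lower (66.7%, beside 14.6% of all tested genes) and none higher, with a median log2 fold change of -0.69. Ifnar1 was at 20.6, 25.6, 15.7 and 20.6 CPM in WT and at 9.34, 10.5, 6.74 and 13.4 CPM in Rank-knockout, without overlap and with a log2 fold change of -1.05 (SE 0.24, adjusted p = 0.00477 by edgeR). Ifngr2 had a log2 fold change of -0.90 (SE 0.22, adjusted p = 0.00642 by edgeR), and both passed in all 17 alternatives. Ifnar2 (-0.66) and Il10rb (-0.58) passed in 6 and 7 of the 17 alternatives, with adjusted p of 0.0419 and 0.0325 by edgeR. The log2 fold changes of Ifngr1 (-0.28) and Ifnlr1 (-0.72) did not pass, and WT levels of Ifnlr1, the type III chain, ran from 9.12 to 31.9 CPM.

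Among the transducers, 2 of 7 were lower (28.6%, beside 14.6% of all tested genes) and none higher. Jak2, the kinase of the interferon gamma receptor and of many cytokine receptors, was at 194, 201, 195 and 212 CPM in WT and at 112, 94.2, 82.3 and 110 CPM in Rank-knockout. These WT libraries, which differed up to 4.74-fold in Isg15, were close to each other in Jak2. Jak2 had a log2 fold change of -1.0 (SE 0.14, adjusted p = 0.000218 by edgeR). Stat3, used by several cytokine receptors, was also lower (-0.64, adjusted p = 0.00948 by edgeR) and did not pass on library totals. Of 11 tested inhibitors of interferon signalling, Ptpn6, a phosphatase, was lower (9.09%, beside 14.6% of all tested genes), with a log2 fold change of -0.59 and an adjusted p of 0.0257 by edgeR that passed in 10 of the 17 alternatives, and none of 11 tested sensing adaptors and kinases passed.

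**Figure D5:**
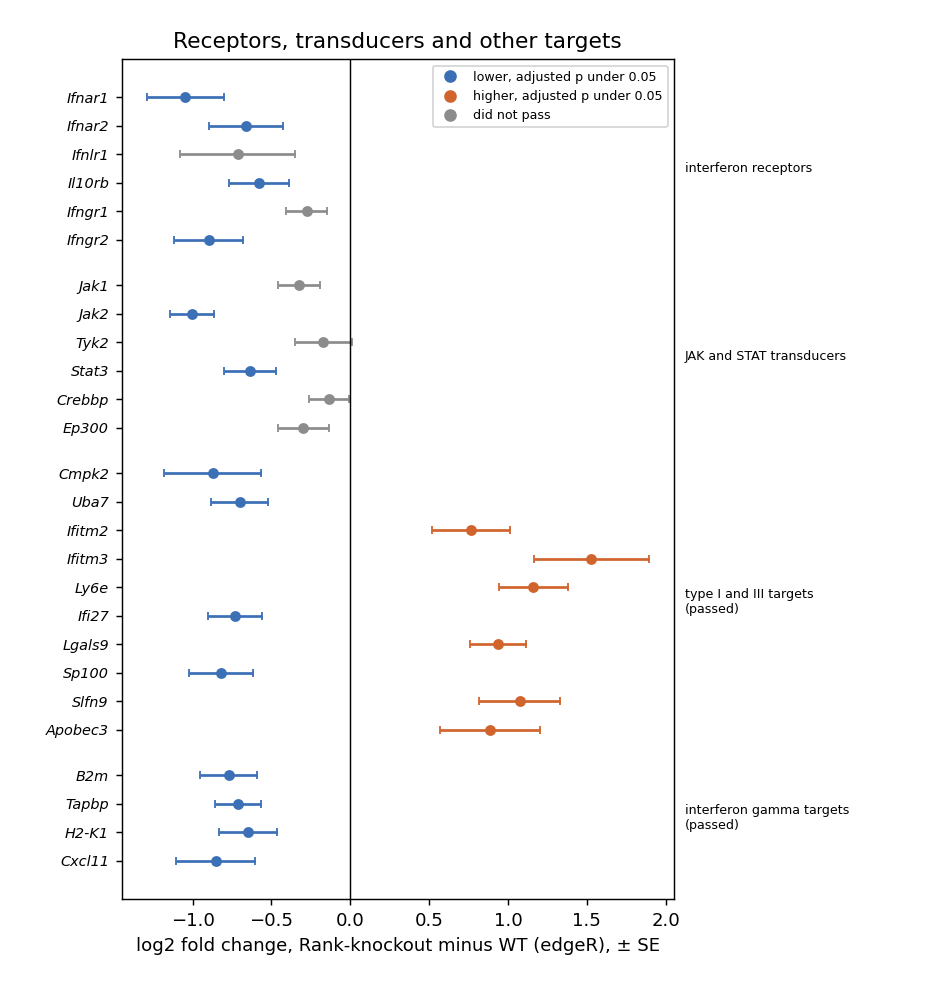
Log2 fold change, Rank-knockout minus WT, with bars of 1 standard error, for the interferon receptors, 6 of the 7 JAK and STAT transducers and those other interferon targets that passed. All 6 receptors lie below 0, Jak2 lies at -1.0 with a short bar, and the targets that passed lie on both sides, from -0.87 for Cmpk2 to 1.53 for Ifitm3.

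Other interferon targets, from lists drawn up with earlier results of these data known, passed in both directions. Of 39 tested type I and III targets, 6 were higher (15.4%, beside 15.8% of all tested genes) and 4 lower (10.3%, beside 14.6%), shares near or below those of all genes, with a median log2 fold change of -0.31. Ly6e, a membrane protein of the Ly6 family that acts on virus entry, was at 21.2, 17.0, 15.7 and 9.98 CPM in WT and at 41.4, 39.4, 31.5 and 31.1 CPM in Rank-knockout, a log2 fold change of 1.16 (SE 0.22, adjusted p = 0.00136 by edgeR). Lgals9, a galectin, and Slfn9, of the Schlafen family, had log2 fold changes of 0.94 and 1.08. Ly6e, Lgals9 and Slfn9 passed in all 17 alternatives and, like Bst2, did not overlap between the genotypes. Ifi27, a relative of Ifi27l2b, was lower with a log2 fold change of -0.73, as were Sp100, a nuclear body protein, at -0.82, and Uba7, the activating enzyme for ISG15, at -0.70. These 3 also passed in all 17 alternatives. Uba7 was thus lower while Isg15 itself did not pass.

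Of 20 tested interferon gamma targets, 4 were lower (20%, beside 14.6% of all tested genes) and none higher. The median log2 fold change was 0.16, and 13 of the 20 values were positive. B2m, the light chain of MHC class I, was at 1036, 827, 1496 and 1230 CPM in WT and at 620, 737, 562 and 767 CPM in Rank-knockout, a log2 fold change of -0.77 (SE 0.18, adjusted p = 0.00481 by edgeR). Tapbp, the chaperone tapasin, fell by 0.71 and H2-K1, a class I heavy chain, fell by 0.65 on the log2 scale. B2m, Tapbp and H2-K1 had no overlap between the genotypes. The class I heavy chain gene H2-D1 did not pass and overlapped, at 536.7 to 1220 CPM in WT against 405.6 to 733.4 CPM in Rank-knockout (log2 fold change -0.59, adjusted p = 0.0725 by edgeR), as did Tap1 and Tap2. H2-K1 did not pass on library totals, without WT replicate 3 or without Rank-knockout replicate 3, and reads of class I heavy chains may be shared between family members.

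The makeup of the libraries also differed between the genotypes. Of 12 villus enterocyte markers, 10 were lower (83.3%, beside 14.6% of all tested genes) and none higher, and their summed level was 28090, 24740, 32680 and 34470 CPM in WT and 11370, 15720, 15900 and 16230 CPM in Rank-knockout. All 15 tested replication and cell cycle genes were higher (beside 15.8% of all tested genes). Summed over the 16 listed genes, levels ran from 586 to 898 CPM in WT and from 1500 to 2360 CPM in Rank-knockout. Of 10 epithelial markers, Epcam, Vil1 and Krt20 were lower (30%) and Krt18 and Krt19 higher (20%), and their sum was 13100 to 14400 CPM in WT against 10200 to 13100 CPM in Rank-knockout. In these bulk libraries fewer cells of a type and less RNA per cell cannot be told apart. The part of these shifts in the lower sensing genes, receptors and class I genes and in the higher Bst2 was not tested.

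Markers of immune and stromal cells were unevenly represented. No marker of macrophages and dendritic cells out of 17 had enough counts to be tested, their sum was 14.3 to 31.5 CPM in WT against 7.91 to 23.6 CPM in Rank-knockout, and Adgre1, Flt3, Xcr1 and Clec9a had 0 counts in every library. None of 9 tested T cell and intraepithelial lymphocyte markers passed, of 16 listed, and their sum was 305 to 447 CPM in WT against 218 to 342 CPM in Rank-knockout. Of 8 B and plasma cell markers, 2 were tested, and Igkc was lower (50%, beside 14.6% of all tested genes). The other, Igha, did not pass, with a log2 fold change of -1.49 and an adjusted p of 0.0664 by edgeR. The sum over the list was 56.7 to 154 CPM in WT against 9.89 to 53.7 CPM in Rank-knockout, with Cd79a at 0 counts. Stromal, muscle and endothelial markers summed to 27.3 to 45.9 CPM in WT against 27.0 to 50.3 CPM in Rank-knockout, with Tagln and Cdh5 at 0 counts. WT replicate 3, the highest library for most interferon-stimulated genes, had the lowest WT sums of macrophage (14.3 CPM) and of B and plasma cell markers (56.7 CPM), and a T cell sum of 317 CPM, above the lowest of 305 CPM. Rank-knockout replicate 3, the lowest library for most members, had the lowest T cell (218 CPM) and B and plasma cell (9.89 CPM) sums of its genotype. Rank-knockout replicate 4 had the lowest macrophage sum, 7.91 CPM.

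Paneth cell markers ran the other way in several libraries. Of 8 markers, 4 were higher in Rank-knockout (50%, beside 15.8% of all tested genes) and none lower, and their sum was 3315, 4521, 2192 and 2158 CPM in WT and 8671, 5656, 9448 and 3001 CPM in Rank-knockout. Rank-knockout replicate 3, the lowest library for most members, had the highest Paneth sum of its genotype, and Rank-knockout replicate 4, the highest for most members, had the lowest. Of 4 tested M cell markers, Ccl9 and Pglyrp1 were higher (50%, beside 15.8% of all tested genes), while Spib and Anxa5 did not pass. The M cell markers Gp2 and Sox8 had 0 counts. The M cell list summed to 34.1 to 55.5 CPM in WT against 60.8 to 91.5 CPM in Rank-knockout, which is no count of M cells. The paper reports that M cells of Peyer's patches were absent in the knockout females. Tuft cell markers summed to 26.6 to 44.5 CPM in WT and 29.0 to 38.4 CPM in Rank-knockout, with none of 4 tested passing. The part of these cell types and of the immune cells in the spread between mice was not tested.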

How the data were processed

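Intestinal epithelial RNA of 4 WT and 4 Rank-knockout mice at lactation day 5 was made into QuantSeq 3′ libraries. The authors deposited raw read counts per gene and library. Per the paper's methods, reads were trimmed, ribosomal and mitochondrial reads removed, and the rest aligned to GRCm38 (mm10 per the labels) with STAR and counted on the sense strand with featureCounts, so reads shared by near-identical family members (GTPases, Oas, Ifi27l2 and class I genes) leave those genes uncertain. Deposited counts were used without change, and 1 tag per transcript means that CPM needs no correction for length. Gene names came from GENCODE M21 (54409 of 54532 identifiers matched).

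Counts were scaled by TMM, filtered with filterByExpr and tested with edgeR 4.0.16 (R 4.3.3; glmQLFit, robust, genotype as the only term), adjusted p under 0.05 over 9855 genes. The fit was tested on simulated data. The members and all gene lists were chosen with earlier results of these data known. All 40 members were accounted for. Every member that passed is named, as is the most abundant member of a role where that member did not pass. Every receptor and up to 3 pathway genes per list and direction with the smallest p are also named. Further named genes (Oas3, Zbp1, Irf9, Irf8, Stat2, Usp18, Irgm2, Cmpk2 and Ifitm3 among them) were added after their values were seen. Alternatives were RLE and other library sizes, 2 filters, DESeq2 1.42.0, limma-voom 3.58.1, a replicate block, thinning, and leaving out each library, 17 in all. Libraries of fewer counts give less precise values for low genes. Some listed genes are not reported here.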

Additional observations from a re-analysis of the deposited data

Results flagged for a closer look

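The totals and the CPM of the 28 tested members in each genotype made 58 sets of 4 values. Of these, 6 had 1 library far from the other 3. A rate of 1 in 20 for independent sets would give 2.9. The members vary together in the same libraries, so 2.9 is no chance level for these sets. WT replicate 2 had 4335653 counts in total, while the other WT libraries had 1530781 to 1616024. Of the 6, 3 were WT replicate 3 above the other WT libraries: Zbp1 stood at 34.8 CPM there against 4.79 to 9.32, Oasl1 at 80.6 CPM against 43.1 to 49.3, and Igtp at 69.7 CPM against 13.7 to 18.0. In the Rank-knockout libraries, Ifih1 was at 24.7 CPM in replicate 3 against 30.8 to 31.9 in the others. Trim25 was at 119 CPM in Rank-knockout replicate 4 against 92.6 to 96.4.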

How the results depend on the processing

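Of 797 comparisons of a gene's log2 fold change with an alternative, 699 kept both direction and call, 58 lost and 9 gained the call, and 31 changed sign, none of these in a member that had passed. On library totals 3 members were lower and 2 higher, and without a filter on low counts 3 were higher. Leaving out each library in turn gave 4 to 9 members lower and 1 higher each time. The replicate block kept 8 lower and 1 higher. Libraries of the same number had deviations that correlated at 0.05, 0.15, -0.14 and 0.32, and libraries of different numbers at -0.35 to 0.25. The labels do not say whether equal numbers pair the mice, and so few correlations cannot decide it. In the block the log2 fold change of Isg15 was 0.0541. Library totals shifted the median of all genes by 0.20 and library sizes that left out the 50 most abundant genes by 0.13, which changed the calls over all genes from 1555 higher and 1438 lower to 2575 and 857 and to 2184 and 1001. Under these 2 scalings, signs changed for Irf1 (0.153 and 0.0861), Isg15 (0.114 and 0.0452), Oas1a (0.0885 and 0.0216) and Gbp7 (0.0971 and 0.032). With limma-voom the values of Isg15, Oas1a and Tap2 were 0.11, 0.23 and 0.63. The value of Ifit3 was -0.0045 with RLE and -0.0291 with DESeq2. Leaving out each library in turn gave ranges of -0.17 to 0.0926 for Irf1, -0.39 to 0.43 for Isg15, -0.54 to 0.0732 for Usp18, -0.51 to 0.0286 for Ifit1, -0.26 to 0.61 for Ifit3, -0.54 to 0.50 for Oas1a, -0.74 to 0.0007 for Rsad2, -0.40 to 0.21 for Gbp7, -0.0138 to 1.29 for Igtp and -0.0826 to 1.16 for Irgm2. The cause of these changes was not tested. At this depth and these levels, 12 of the 40 members had too few counts to be tested.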
